A study of Rattus norvegicus with 18 samples.

Results

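Chemokines are small secreted proteins that steer white blood cells, and 9 of them were followed here in rat bone after fracture: Ccl2, Ccl3, Ccl4, Ccl5, Ccl20, Cxcl1, Cxcl2, Cxcl12 and Cx3cl1. Members were found by gene symbol in the array annotation, with the brightest probe set over the 18 arrays standing for the gene. Of the 9 listed genes, 7 had an annotated probe set, with 10 probe sets among the 8740 tested, while Cxcl1 and Cxcl12 were not analysed here. A chemokine is made by injured or inflamed tissue, binds a receptor on a passing leukocyte and draws that cell out of the blood. In a fracture this is known as an early step of repair, in which neutrophils and then monocytes enter the clot at the break. Many chemokine genes are switched on by interleukin 1, tumour necrosis factor and the transcription factor NF-kB.

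Intact female Sprague-Dawley rats aged 6 weeks (young), 26 weeks (adult) or 52 weeks (older) had a closed fracture of the femoral shaft held by an intramedullary rod. At each age there were sham controls with no fracture (0 time) and rats killed 0.4 (3 days, by the labels), 1, 2, 4 or 6 weeks later. Each array held pooled RNA of 2 rats, with 1 array per age and week. A week thus had 3 arrays, 1 of each age, and each age had a lone control array. The tissue was the middle part of the femur, with callus, cortical bone and marrow, and the readout was the signal of a rat GeneChip array in arbitrary linear units.

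In bulk tissue, fewer cells of a type and less RNA per cell cannot be told apart. Changes below are log2 differences after signals below 20 were set to 20, from a limma fit that held terms for age and for week. A change was called at a Benjamini-Hochberg adjusted p under 0.05 over all probe sets. P-values and intervals measure the spread between these arrays, with the 3 ages as replicates of a week and the weeks as replicates of an age. They do not measure the spread between rats of the same age and week. Median signals were 149 to 188 per array, and 10.6% to 18% of probe sets were below 20. The ratio of 3' to 5' signal of Gapdh, a sign of RNA quality, was 3.48 on the young 4-week array and 6.57 on the young 6-week array, against 1.15 to 1.83 on the other 16. The median change of all probe sets was -0.13 at 0.4, 1 and 2 weeks.

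Of the 7 measured chemokines, Ccl2 rose and Cx3cl1 fell in the test over all 5 later weeks, beside 26.4% of all probe sets called, and 4 of 7 had an unadjusted p under 0.05. At 0.4 week 2 of 7 rose, Ccl2 and Cxcl2, and Cx3cl1 fell, beside 14.1% of all probe sets higher and 17.1% lower. At 1 week Ccl2 rose and Ccl4 and Cx3cl1 fell, beside 14.6% higher and 20.4% lower. The same 3 genes were called at 2 weeks, when 9.49% of all probe sets were higher and 10.3% lower. At 4 weeks Ccl2 alone was called, beside 3.31% higher and 1.77% lower, and at 6 weeks none of the 7 was, beside 0.881% of all. Without the older 1-week array, 1 of 7 was called over all weeks, 1 at 1 week and 1 at 6 weeks. At 6 weeks 3 of 7 had an unadjusted p under 0.05 in limma, and the methods' t-test on log2 or linear signals called 0. The median log2 change of the 7 was 0.05 at 0.4 week and -0.13 at 1 and 2 weeks.

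**Figure D1:**
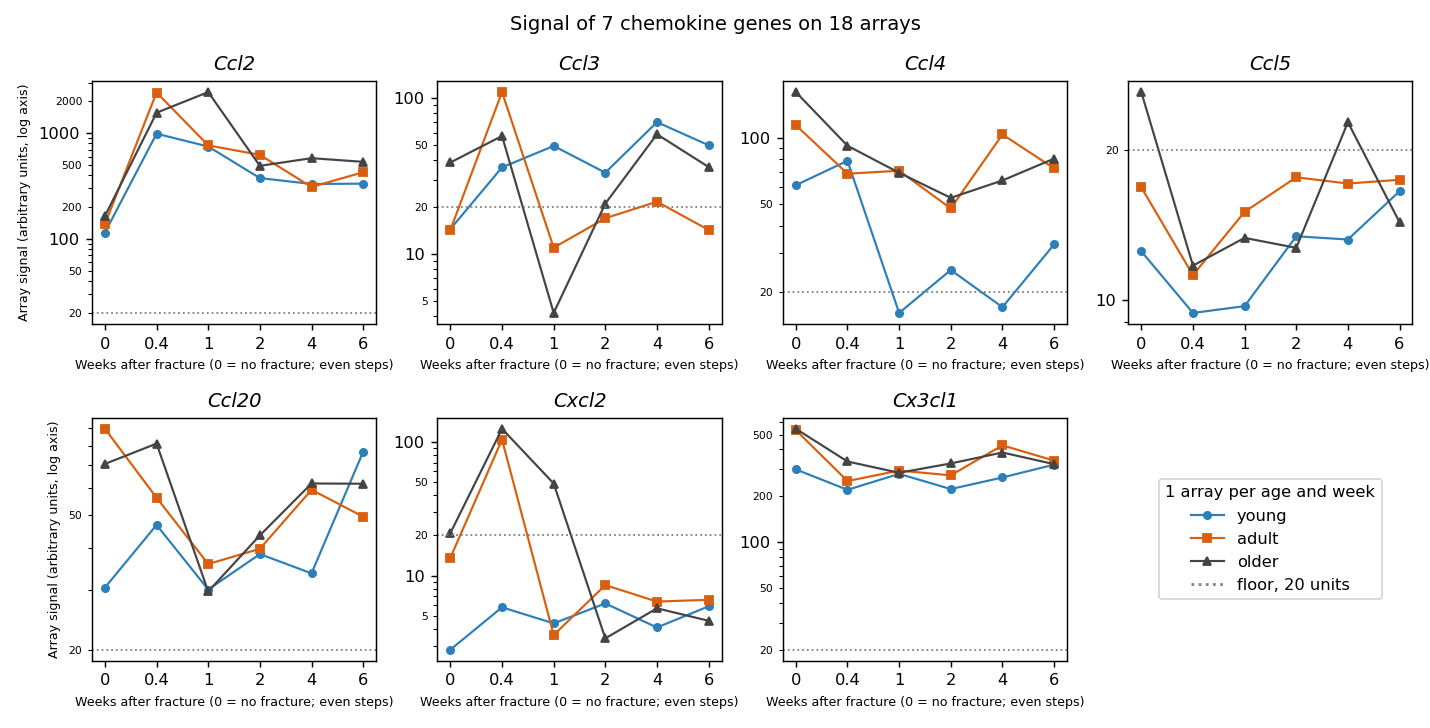
Signal of the 7 chemokine genes on each of the 18 arrays, in arbitrary units on a log axis, against weeks after fracture in even steps, with a line per age and a dotted line at the floor of 20 units. Ccl2 was above its 0 time signals on every later array, and Cxcl2 was above 20 units on 4 arrays, none of them from young rats.

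Ccl2, the main attractant of monocytes, was the chemokine with the largest change. At 0.4 week its signal was 987 (young), 2419 (adult) and 1558 (older), against 115, 138 and 164.5 in the 0 time controls of the same ages. At 1 week it was 747 (young), 766 (adult) and 2442 (older). All 3 ages were therefore far above their controls within the first week, and the older rats had a higher signal at 1 week than at 0.4 week. At 2 weeks the signals were 376 (young), 623 (adult) and 491 (older), and at 4 weeks 331, 310 and 580. At 6 weeks they were 333, 427 and 535. No later array overlapped with the 0 time range, and the signal at 6 weeks was still 2.89-fold (young), 3.09-fold (adult) and 3.25-fold (older) that of the age's own control.

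The mean signal of Ccl2 was 1655 ± 721 at 0.4 week, against 139 ± 24.8 at 0 time (SD, n = 3 each). The log2 change was 3.49 (SE 0.35, an 11.3-fold increase, limma adjusted p = 0.00014) at 0.4 week and 3.02 (SE 0.35, adjusted p = 0.000559) at 1 week. Ccl2 was still up-regulated at 2 weeks (1.82, adjusted p = 0.01) and 4 weeks (2.83-fold, adjusted p = 0.0375), while the change at 6 weeks was 1.62 with an adjusted p of 0.053. The 4-week call was lost without the young 4- and 6-week arrays (1.39, adjusted p = 0.101) and without any of the 3 ages. The 2-week call was lost without adult arrays (1.64, adjusted p = 0.14) and without older arrays (1.94, adjusted p = 0.0934). In the limma test over all 5 later weeks, Ccl2 was called under 12 of 13 alternatives. That call was lost without adult arrays (adjusted p = 0.059). The 6-week change was called under 5 alternatives, with a value of 1.34 (offset of 50, adjusted p = 0.0465) to 1.65 (quantile normalization, adjusted p = 0.049). A second probe set of Ccl2 followed the leading one with a Pearson r of 0.963 over 18 arrays. It rose by 2.71 at 0.4 week and 2.03 at 1 week and was not called at 2, 4 or 6 weeks (1.08, 0.93 and 0.76).

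Markers of several cell types also changed after fracture, some in the direction of Ccl2 and some against it. The summed signal of 7 of 15 listed monocyte and macrophage markers was 14030 to 16680 at 0.4 week, against 3729 to 11760 at 0 time, so the groups did not overlap. Most of that sum was Lyz2, with a mean signal of 10020 at 0.4 week and 6667 at 0 time. Lyz2 was not called at 0.4 week (limma adjusted p = 0.0905), and Itgam was lower and not called (-0.71). At 0.4 week 4 of these 7 markers rose and none fell, beside 14.1% of all probe sets higher and 17.1% lower. Among the 4 were Fcgr2b (1.06, limma adjusted p = 0.0478) and Aif1 (1.05, limma adjusted p = 0.0406). Over the course 2 of the 7 rose, beside 26.4% of all probe sets called. They were Lgals3, a galectin of activated macrophages (2.33 at 0.4 week), and Cd14, a receptor for bacterial lipopolysaccharide (1.25). The summed signal of 12 muscle markers was 38320 to 46400 at 0.4 week, against 129100 to 247800 at 0 time. At 0.4 week 10 of the 12 fell, beside 17.1% of all probe sets, while Myog rose (2.30, limma adjusted p = 0.027). The summed signal of 7 of 14 granulocyte markers was 1234 to 15610 at 0.4 week, against 32710 to 51770 at 0 time, and all 7 fell. Over the 18 arrays log2 Ccl2 had a Pearson r of 0.643 with the log2 macrophage sum, -0.873 with the muscle sum and -0.718 with the granulocyte sum, and these points share their arrays and their time course. None of the markers of these 3 lists was below 20 on all arrays. The part of these cells in the change of Ccl2 was not tested.

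**Figure D2:**
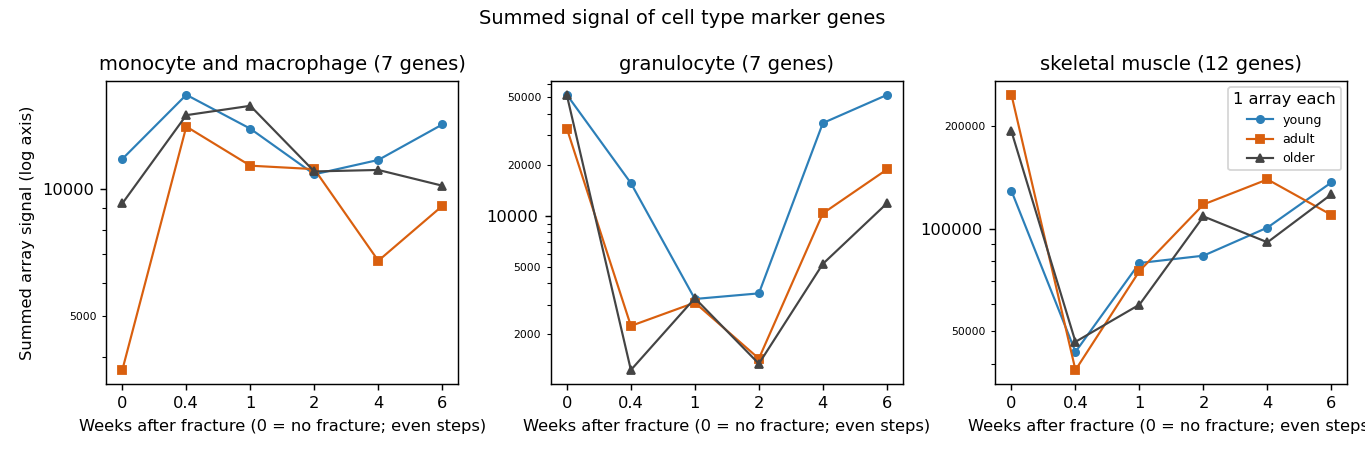
Summed signal of marker genes of monocytes and macrophages (7 genes), granulocytes (7 genes) and skeletal muscle (12 genes) on a log axis against weeks after fracture, with a line per age and 1 array per point. At 0.4 week the macrophage sums lie above, and the granulocyte and muscle sums below, all 3 of their 0 time values.

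The genes whose course was most like that of Ccl2, among 3407 named probe sets whose mean signal was 200 or more, were Plin2 (r = 0.912 over 18 arrays), Rnh1 (0.91) and Eif4ebp1 (0.909). Plin2 coats lipid droplets, Rnh1 is a ribonuclease inhibitor and Eif4ebp1 is a repressor of translation. At 0.4 week their log2 changes were 2.01, 1.26 and 1.84. All 3 were called over time.

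Ccl3, Ccl4 and Ccl5 attract monocytes and T cells, with shared receptors among them. Ccl3 had signals of 36 (young), 109 (adult) and 57.2 (older) at 0.4 week, against 14.5, 14.3 and 38.7 at 0 time. All 3 ages were higher at 0.4 week than in their own control, but the groups overlapped, and the log2 change of 1.29 (SE 0.54) was not called (adjusted p = 0.093). At 1 week Ccl3 had signals of 49.4 in young rats, 11 in adult rats and 4.2 in older rats. From 1 week on, young rats had 33.3 to 70.2, adult rats 11 to 21.7 and older rats 4.2 to 58.7. Older and young rats were not called apart in any age test of Ccl3. Ccl3 was below 20 on 6 of 18 arrays, and no week was called.

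Ccl4 had signals of 16 (young), 71.1 (adult) and 69.6 (older) 1 week after fracture, and 25.1, 47.9 and 53.5 at 2 weeks, against 61.1, 115 and 162 at 0 time. At 2 weeks no array overlapped with the 0 time range, and all 3 ages were lower at both weeks. Ccl4 fell by 1.17 at 1 week (SE 0.37, 2.26-fold lower, adjusted p = 0.0298) and by 1.38 at 2 weeks (2.60-fold lower, adjusted p = 0.0268) on the log2 scale. The changes at 0.4, 4 and 6 weeks were -0.39, -1.03 and -0.85 and were not called, nor was the test over all weeks (adjusted p = 0.0773). Without the older 1-week array, the 1-week change was -1.26 (adjusted p = 0.0628). Without an age term, and without adult or older arrays, neither week was called, and without young arrays the 1-week call was lost as well (-0.96, adjusted p = 0.0571). The fall at 1 week was thus called only with all 3 ages in the fit.

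Ccl5 was below 20 on 16 of 18 arrays, with 26.1 in the older control and 22.7 in older rats at 4 weeks as the only signals above the floor. Its level was therefore not measured well enough for a time course, and no week was called.

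Ccl20, which attracts dendritic cells and T cells through Ccr6, had signals of 30.1 (young), 35.8 (adult) and 29.7 (older) at 1 week, against 30.5, 89.8 and 70.7 at 0 time. Adult and older rats were 2.51-fold and 2.38-fold lower than their controls, and young rats 1.01-fold lower. The log2 change of -0.87 (SE 0.33) was not called (adjusted p = 0.0584), while without young arrays it was -1.29 (adjusted p = 0.00995). At 6 weeks Ccl20 was 76.8 in young rats, on the array with a Gapdh ratio of 6.57, and 49.4 and 61.8 in adult and older rats. No week was called for all 3 ages.

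Cxcl2, a neutrophil attractant that acts through Cxcr2, had signals of 5.8 (young), 104 (adult) and 125 (older) at 0.4 week, against 2.8, 13.6 and 20.8 at 0 time. Adult and older rats were high and young rats were below the floor at every time, with signals of 2.8 to 6.2. At 1 week the older rats still had 48.8, against 4.4 in young and 3.6 in adult rats, and from 2 weeks on no array was above 8.5. The change at 0.4 week was at least 5.19-fold in adult rats, whose control was below the floor, and 6.01-fold in older rats. With values at the floor, the log2 change over the 3 ages was 1.66 (SE 0.49, adjusted p = 0.0264). This call was lost without adult arrays (1.29, adjusted p = 0.291), without older arrays (1.19, adjusted p = 0.272) and with a floor of 1 (2.19, adjusted p = 0.0931), and without young arrays the change was 2.48 (adjusted p = 0.00345). Cxcl2 was below 20 on 14 arrays, and the difference between ages at 0.4 week rests on 1 array each.

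Promoter sequence was at hand for 5 of the 9 listed genes (Ccl20, Cxcl1, Cxcl2, Cxcl12 and Cx3cl1), from RefSeq on build GRCr8. The 250 bases before the start given for each gene in the promoter table were searched on both strands for the NF-kB consensus and for the AP-1 motif TGANTCA. The NF-kB consensus was in 6.33% of all 33469 promoters of this length and the AP-1 motif in 6.34%. Cxcl2 held 2 overlapping matches to the NF-kB consensus, beginning 74 and 73 bases before that start, Cxcl1 held 2 (84 and 83 bases) and Ccl20 held 1 (89 bases). Cxcl12 and Cx3cl1 held no such letters in this window, and none of the 5 held TGANTCA. A match describes the letters alone. The upstream stretches of Cxcl2 (chr14:17467256-17467505, minus strand) and of Ccl20 (chr9:91836909-91837108, plus strand, the first 200 of the 250 bases searched, ending before the annotated gene) are shown, since these measured members held the consensus but differed at 0.4 week, and capitals mark the matches.
Cxcl2: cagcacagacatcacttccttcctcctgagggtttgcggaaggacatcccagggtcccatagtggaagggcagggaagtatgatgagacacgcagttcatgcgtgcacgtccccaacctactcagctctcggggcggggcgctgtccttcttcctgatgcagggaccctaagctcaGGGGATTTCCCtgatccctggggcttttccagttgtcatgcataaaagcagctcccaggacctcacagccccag
Ccl20: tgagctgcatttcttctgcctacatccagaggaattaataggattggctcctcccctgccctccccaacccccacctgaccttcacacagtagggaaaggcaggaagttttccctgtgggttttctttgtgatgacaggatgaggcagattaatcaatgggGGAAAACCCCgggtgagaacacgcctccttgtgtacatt

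Cx3cl1, or fractalkine, is anchored in the cell membrane and is made by endothelium and neurons, among others. At 0.4 week its signal was 219 (young), 249 (adult) and 334 (older), and at 2 weeks it was 221, 272 and 324, against 297, 534 and 545 at 0 time. At 1 week the signals were 278, 292 and 282. Every array of these 3 weeks was below the control of its own age, and at 1 week no array overlapped with the 0 time range. On the log2 scale Cx3cl1 fell by 0.75 (SE 0.18, 1.68-fold lower, adjusted p = 0.00953) at 0.4 week, by 0.64 (adjusted p = 0.0184) at 1 week and by 0.72 (adjusted p = 0.021) at 2 weeks. At 4 and 6 weeks the changes were -0.34 and -0.44 and were not called. In the test over all weeks the adjusted p was 0.0436, and this call was lost under 9 of 13 alternatives, such as quantile normalization (adjusted p = 0.064), no age term (0.152) and no older 1-week array (0.0642).

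The other probe sets of Cx3cl1 differed from each other. The first had a mean signal of 118 over all arrays and fell by 0.58, 0.65 and 0.92 at 0.4, 1 and 2 weeks (adjusted p = 0.0311, 0.0186 and 0.0103). The other, with a mean signal of 155, changed by 0.15, -0.0039 and -0.12 and was not called at any week. It followed the leading probe set with r = 0.536 over 18 arrays, against 0.705 for the probe set that fell. With the mean of all probe sets the change at 0.4 week was -0.39 (adjusted p = 0.0599). Without the older 1-week array the 1-week change was -0.53 (adjusted p = 0.0791), and without adult or without older arrays no week was called (adjusted p of 0.102 to 0.287).

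Log2 Cx3cl1 had r = 0.716 with the summed muscle markers, -0.721 with the macrophage sum and 0.374 with the granulocyte sum over the 18 arrays. The genes most like it were Crybb3, a crystallin (r = 0.928), Atp9a, a lipid-transporting ATPase (0.919), and Trim54, a protein of striated muscle (0.916), with log2 changes at 0.4 week of -1.24, -1.17 and -1.80. The summed signal of 6 endothelial markers was 1427 to 1706 at 0.4 week, against 1257 to 1581 at 0 time, and that of 8 neuronal markers was 825 to 1112, against 984 to 1804. Of the endothelial markers 1 of 6 fell over time, beside 26.4% of all probe sets called, and of the neuronal ones none was called over time. Syn1, a synaptic vesicle protein, was the only 1 of the 8 called at 0.4 week (-0.82, adjusted p = 0.0369), beside 17.1% of all probe sets lower. It was also called lower at 1 week (-0.86, adjusted p = 0.0281), beside 20.4%. At 0.4 week Syp, Gap43, Prph and Nefh had changes of 0.0076 to 0.23, and Snap25, Nefl and Nefm were lower, all uncalled. The part of these cells in the fall of Cx3cl1 was not tested.

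**Figure D3:**
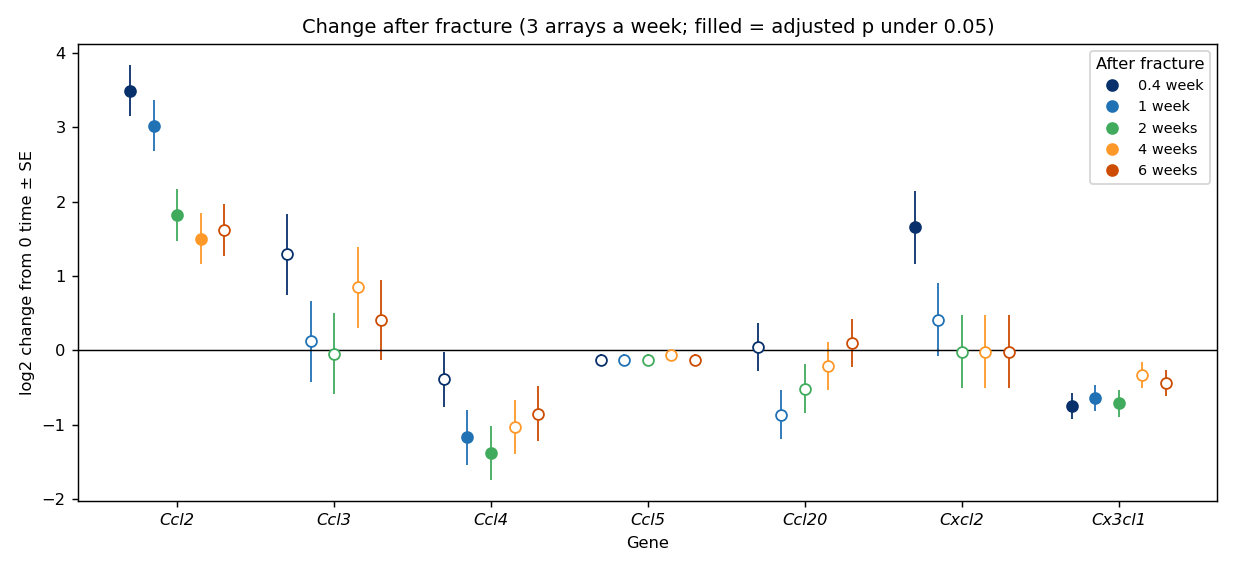
Log2 change from 0 time (± SE) of the 7 chemokine genes at each later week, with 3 arrays a week and filled points for an adjusted p under 0.05. Ccl2 starts at 3.49 and lies above 0 at every week, while Ccl4 and Cx3cl1 have filled points below 0.

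Among themselves the 7 genes fell into no common course. Over the 18 arrays Ccl2 had a Pearson r of 0.683 with Cxcl2 and of -0.527 with Cx3cl1. Cx3cl1 had r = 0.635 with Ccl4 and 0.638 with Ccl20, and Ccl2 had r = -0.07 with Ccl4. These values share arrays and signals at the floor and are given as a description.

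Older and young rats were compared to ask whether the response differed with age. The comparison over the later weeks included the young 4- and 6-week arrays, with Gapdh ratios of 3.48 and 6.57. Over the 5 later weeks none of the 7 chemokines was called, beside 0% of all probe sets. An unadjusted p under 0.05 in limma was found for 3 of 7, beside 1103 of all 8740 probe sets. Ccl2 was higher in older than in young rats at 5 of 5 weeks, with signals of 491 to 2442 in older rats, against 331 to 987 in young rats. The difference was 0.85 on the log2 scale (95% interval 0.18 to 1.52, adjusted p = 0.284). Ccl4 was also higher in older rats at 5 of 5 weeks, with signals of 53.5 to 92.4, against 16 to 78.9 in young rats, and differed by 1.22 (0.53 to 1.91, adjusted p = 0.194). Cx3cl1 differed by 0.35 (0.07 to 0.62, adjusted p = 0.287), again with older rats higher at 5 of 5 weeks. The same order held at 0 time for these 3 genes. The intervals of Ccl3 (-0.40, -1.38 to 0.57), Ccl20 (0.31, -0.14 to 0.75) and Cxcl2 (0.79, -0.14 to 1.72) included 0.

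**Figure D4:**
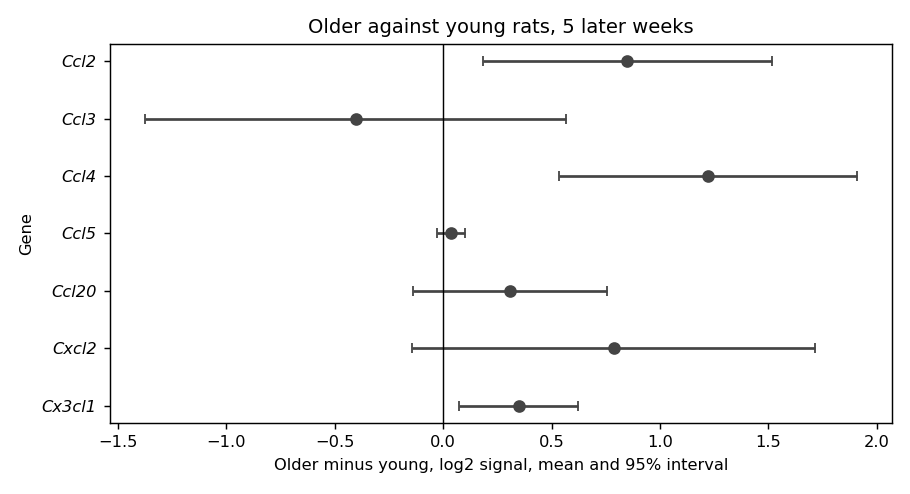
Older minus young log2 signal of the 7 chemokine genes over the 5 later weeks, with 95% intervals, where values right of 0 are higher in older rats. The intervals of Ccl2, Ccl4 and Cx3cl1 lie right of 0, and no gene passed the adjustment over all probe sets.

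At 1 and 2 weeks none of the 7 was called between older and young rats, beside 0% of all probe sets. At an unadjusted p under 0.05 in limma there were 2 of 7, beside 498 of all 8740 probe sets. In simulated data this test recovered 0% of 2-fold and 65.5% of 4-fold changes. Ccl3 was 0.98 lower (adjusted p = 0.563) and Ccl4 1.45 higher (95% interval 0.49 to 2.40, adjusted p = 0.688) in older rats. At 4 and 6 weeks none was called either, beside 0.149% of all, with 1 of 7 at an unadjusted p under 0.05, beside 1275 of all 8740. The only young arrays in this contrast were those with Gapdh ratios of 3.48 and 6.57. The change from the age's own control differed between older and young rats by 0.33 for Ccl2 (95% interval -1.30 to 1.97, adjusted p = 0.874). Of the 7, Ccl5 alone was called in this test, lower in older rats, beside 3.02% of all probe sets. That call comes from signals near the floor and was lost with a floor of 1 (-0.81, adjusted p = 0.486).

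Chemokine receptors carry the signal into the leukocyte, and 10 of 23 listed receptors were measured. Over all weeks 1 rose and none fell, beside 26.4% of all probe sets called, and their median change was -0.25 at 0.4 week. Cxcr4, the receptor of Cxcl12 on blood-forming cells, had signals of 1411 (young), 1074 (adult) and 918.5 (older) at 4 weeks, against 772, 516.5 and 755 at 0 time (log2 change 0.74, adjusted p = 0.0598; over all weeks adjusted p = 0.0367). The week of its largest change was thus not called on its own, and another probe set of Cxcr4 fell by 0.66 at 1 week (adjusted p = 0.0279).

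The receptors of Ccl2, Cxcl2 and Cx3cl1 were not called at any week. Ccr2, the receptor of Ccl2, had signals of 22.7 (young), 28.1 (adult) and 46.8 (older) at 0.4 week, against 72.1, 31.3 and 32.9 at 0 time. At 1 week Ccr2 was below 20 in all 3 ages, at 12 to 13.3, while Ccl2 was 747 to 2442 (log2 change of Ccr2 -1.07, adjusted p = 0.15). Cxcr2, the receptor of Cxcl2, had 27 (young), 48.1 (adult) and 46.1 (older) at 0.4 week, against 38.9, 91.5 and 124 at 0 time (-0.96, adjusted p = 0.175). Its signal was lower than the own control at all 3 ages, whereas that of Cxcl2 was higher in adult and older rats and below the floor in young rats at both times. Cx3cr1, the receptor of Cx3cl1, was 161, 148.5 and 166 at 0.4 week, against 61.7, 208 and 268.5 at 0 time (0.07, adjusted p = 0.952). Ccr1, a receptor of Ccl3 and Ccl5, was not called either. Ccr3, an eotaxin receptor, was the only receptor whose leading probe set was called at a single week (-1.80 at 1 week, adjusted p = 0.0472). At 1 week 20.4% of all probe sets were lower. Ccr3 signals were then 17.1 (young), 21.5 (adult) and 21.7 (older), near the floor, and Ccr3 was not called over all weeks.

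Of 28 other chemokines 8 were measured, and over all weeks 2 rose and 2 fell, beside 26.4% of all probe sets called, with a median change of -0.35 at 0.4 week. Cxcl13, which attracts B cells, had signals of 380 (young), 355 (adult) and 232 (older) at 0.4 week, against 27.1, 56 and 67.3 at 0 time. Its groups did not overlap, and it rose 6.74-fold (2.75, SE 0.47, adjusted p = 0.00184). Cxcl10, an interferon-induced attractant of T cells, had its highest mean at 1 week with 232 (young), 434 (adult) and 114 (older), against 44.2, 57.7 and 63.4 at 0 time (2.05, 4.14-fold higher, adjusted p = 0.00568), although the older rats had more, 169, at 2 weeks. Ccl2, Cxcl2, Cxcl13 and Cxcl10 thus reached their highest mean within 1 week of fracture.

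Cxcl14, a chemokine of resting epithelium and connective tissue, was 617 (young), 240 (adult) and 478 (older) at 0.4 week, against 1794, 1218 and 1040 at 0 time (-1.67, 3.18-fold lower, adjusted p = 0.00193). At 6 weeks it was 3532, 3698.5 and 3076, above all 3 controls (1.38, adjusted p = 0.052). Cxcl14 signals were thus below the controls early and above them at 6 weeks, and a second probe set also fell at 0.4 week (-1.80, adjusted p = 0.00522). Pf4, a chemokine of platelets and their precursors, was 845 (young), 850 (adult) and 1082 (older) at 1 week, against 5301, 3370 and 6264 at 0 time (-2.39, 5.24-fold lower, adjusted p = 0.00393). Cxcl6, a neutrophil attractant, was called lower at 1 week alone (adjusted p = 0.012), and Cxcl3 was below 20 on all 18 arrays.

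**Figure D5:**
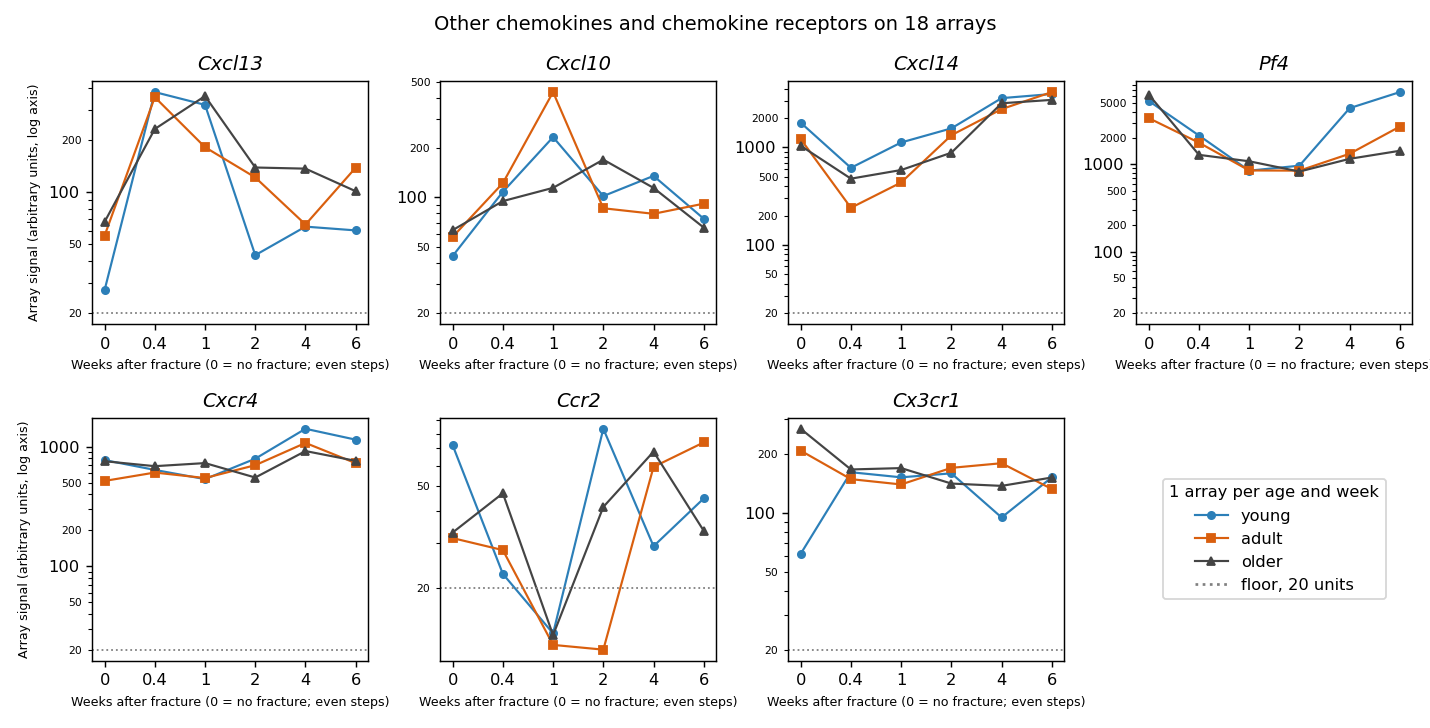
Signal of 4 other chemokines and 3 chemokine receptors on each of the 18 arrays, in arbitrary units on a log axis, against weeks after fracture in even steps, with a line per age. Cxcl13 and Cxcl10 peak between 0.4 and 2 weeks, Cxcl14 and Pf4 are lowest between 0.4 and 2 weeks, and Cx3cr1 starts lowest in young rats.

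Of 31 listed inducers and NF-kB pathway genes 19 were measured, and over all weeks 7 rose and 3 fell, beside 26.4% of all probe sets called. At 0.4 week 8 rose and 2 fell, beside 14.1% of all probe sets higher and 17.1% lower. The median change of the 19 was 0.45 at that week. At 0.4 week Il18, an inflammasome cytokine, rose by 2.18 (adjusted p = 6.54e-05), Hif1a, the oxygen-sensing transcription factor, by 1.62 (adjusted p = 0.000564) and Il6 by 4.84 (adjusted p = 0.00187). Ptgs2, the inducible cyclooxygenase, had a mean signal of 732.5 at 0.4 week, against 6.57 at 0 time, which is below the floor (adjusted p = 0.000904). Tnf, a main inducer of chemokines, was lower at 0.4 week (-0.30, adjusted p = 0.00146), with signals below 20 on 13 of 18 arrays, and Il1b, which codes for interleukin 1 beta, was lower at 1 week (-1.03, adjusted p = 0.00672).

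Adhesion molecules hold leukocytes at the vessel wall, and of 14 measured of 20 listed 4 rose and 1 fell over all weeks, beside 26.4% of all probe sets called, with a median change of -0.08 at 0.4 week. Cd44 (1.45 at 1 week, adjusted p = 0.00106) and Icam1 (1.94, adjusted p = 0.00209) rose early, while Vcam1 had fallen at 0.4 week (-0.95, adjusted p = 0.00231) and peaked at 4 weeks (1.06, adjusted p = 0.013). Sele, or E-selectin, rose at 1 week (0.85, adjusted p = 0.0178).

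Proteases that trim or destroy chemokines had 8 members that rose and 3 that fell over all weeks, of 19 measured and 23 listed, beside 26.4% of all probe sets called, with a median change of 0.85 at 0.4 week. The cathepsins Ctss (1.69 at 0.4 week, adjusted p = 0.000526) and Ctsl (1.93, adjusted p = 0.000519) rose. Dpp4, which clips the ends of several chemokines, was lower at 0.4 week (-1.14, adjusted p = 0.0215), as was the mast cell chymase Cma1 (-2.10, adjusted p = 0.00583), whose change at 4 weeks was 2.08 (adjusted p = 0.0316).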

How the data were processed

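Intensity was deposited as linear Microarray Suite signals, which combine perfect match and mismatch probes and which the authors brought to a mean of 500 on every array. The 18 arrays of series 3, 1 of the study's 3 for each age and time, were analysed here without their detection calls. Of 8799 probe sets 59 controls were left out, 7006 had 1 gene symbol, 308 several and 1426 none, and symbols were updated through gene identifiers with a RefSeq table. A floor of 20 was applied before log2, and the arrays were not normalized again.

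The effect of time was tested in limma 3.58.1 (R 4.3.3) over 18 arrays, with age and week as terms (10 residual degrees of freedom), an intensity trend and Benjamini-Hochberg adjustment over 8740 probe sets at 0.05. Older and young rats were compared over later weeks, by phase and as change from the own control (8, 4 and 8 degrees of freedom). The tests were tested on simulated data with 200 changed probe sets, where limma recovered 21% of 2-fold and 91.5% of 4-fold changes at 0.4 week. No other probe set changed there, while at 0.4 week 14.1% of all measured probe sets were called higher and 17.1% lower. The Benjamini-Hochberg cutoff depends on that share, so the simulated recovery at 0.4 week need not hold for the measured data. The changed probe sets were drawn from those with a mean signal, on the log2 scale, above 200 units. Ccl3, Ccl4, Ccl5, Ccl20 and Cxcl2 had mean signals of 15.0 to 68.5, and recovery was not tested for such low signals. For older against young rats over the later weeks the recovered shares were 60.5% and 94%, and for the change from the own control 0% and 41.5%.

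The members and gene lists were chosen with earlier results of these data known. Named are all members, other chemokines and receptors called over time, up to 4 genes of each other list by smallest adjusted p, and the 3 genes most like each called member. Ccr1, Ccr2, Ccr3, Cxcr2, Cx3cr1, Cxcl3, Cxcl6, Il1b, Syn1 and Tnf were named after their values were seen. Alternatives were another floor, an offset, another scaling, filter and probe set rule, no intensity trend, arrays left out, no age or week term, and a t-test like that of the methods. The number of arrays limits the precision. Plots were made in Python 3.11.15 with matplotlib 3.10.9.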

Additional observations from a re-analysis of the deposited data

Results flagged for a closer look

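Older and young rats differed in the change of 4 named genes from their own control, tested over the 5 later weeks against 0 time with limma. Cx3cr1, the receptor of Cx3cl1, had log2 changes of -0.97 to -0.67 in older rats, against 0.62 to 1.38 in young rats, a difference of -2.01 (SE 0.41, adjusted p = 0.0197), and adult rats lay at -0.65 to -0.21. Its signal was 268.5 in the older control, against 61.7 in the young control, and 137 to 169 in older rats after fracture, against 94.6 to 161 in young rats. The later signals of both ages overlapped, and the difference rests on 1 control array per age.

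Ccl5 had changes of -0.38 to -0.20 in older rats, against 0 in young rats, where every signal was below the floor, a difference of -0.35 (SE 0.07, adjusted p = 0.0188). It rests on the older control, whose signal was 26.1. The call was lost with a floor of 1 (-0.81, adjusted p = 0.486) and with an offset of 50 (-0.23, adjusted p = 0.304).

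Tnf changed by -0.47 to -0.43 in older rats, against -0.22 to -0.14 in young rats, a difference of -0.25 (SE 0.03, adjusted p = 0.00045), with most of its signals below the floor. Its mean signal at 0 time was 24.7. Signals set to 20 do not vary, so the SE and p-value of Tnf understate its spread, and no other floor was tried for it. Ctsl changed by 1.81 to 2.60 in older rats, against 0.27 to 1.35 in young rats, a difference of 1.35 (SE 0.28, adjusted p = 0.021). The differences of Tnf and Ctsl also rest on 1 control array per age.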

How the results depend on the processing

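Of the results for single genes under the 24 settings, 509 kept their direction and side of the threshold, 32 lost and 9 gained a call, and 17 uncalled values changed sign. Ccl2 was called at 0.4 week under every limma setting. Over time, 2 chemokines were called, and 1 with a floor of 1, quantile normalization, median scaling, no age term, without the young 4- and 6-week arrays and without the older 1-week array, a setting chosen after the data were seen. The call lost in each of these was that of Cx3cl1 (adjusted p of 0.0538 to 0.152); with an offset of 50 Cx3cl1 was also not called (adjusted p = 0.071) and Cxcl2 was (adjusted p = 0.0453). Without young, adult or older arrays the count was 0 to 3. With 1 age left out it was 1 to 3 at 0.4 week, 1 to 3 at 1 week, 0 to 4 at 2 weeks, 0 at 4 weeks and 0 to 1 at 6 weeks, against 3, 3, 3, 1 and 0. Without an age term it was 1 at 1 week, 1 at 2 weeks and 0 at 4 weeks. At 4 weeks it was 0 with median scaling, with the mean of all probe sets and without the young 4- and 6-week arrays. At 6 weeks it was 1 with quantile normalization, a floor of 1, an offset of 50, a mean signal of at least 200 and without the older 1-week array, which also gave 1 at 1 week. In the change from the own control, older against young rats, it was 0 with a floor of 1, an offset of 50 and a mean signal of at least 200, against 1. A t-test like that of the methods, but of 3 arrays against 3, had as threshold the p level the paper printed for its time tests. The paper's own tests had more samples, with 3 arrays of each age. On log2 signals the t-test run here called 1 at 0.4 week at that threshold and 1 after Benjamini-Hochberg adjustment, and 0 at 1, 2 and 4 weeks by either. On linear signals it called 0 at 0.4, 1, 2 and 4 weeks by either.

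Uncalled values that changed sign were Ccl3 at 1 week (-0.60 with a floor of 1, -0.054 with an offset of 50, -0.48 to 0.65 with an age left out), at 2 weeks (0.19 with a floor of 1, 0.036 with an offset of 50, 0.058 after quantile normalization, 0.010 after median scaling, -0.44 to 0.37 with an age left out) and at 6 weeks (-0.048 to 0.66 with an age left out). Ccl20 did so at 0.4 week (-0.0039 with an offset of 50, -0.24 to 0.41 with an age left out) and at 6 weeks (-0.53 to 0.57 with an age left out, -0.25 without the young 4- and 6-week arrays). Cxcl2 was -0.012 at 1 week with a floor of 1. In the change from the own control, older against young rats, Cxcl2 was -1.46 with a floor of 1 and Ccl4 0.053 after quantile normalization. The cause was not tested. Low signals limit Ccl5 (below 20 on 16 arrays), Cxcl2 (14) and Ccl3 (6). No paired analysis was possible because all arrays carry 1 and the same series number in their labels.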
